A study of Mus musculus with 16 samples.

Results

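The genes described here are 10 cytosolic aminoacyl-tRNA synthetases of the mouse, found in the expression table under the symbols Aars, Cars, Eprs, Gars, Iars, Mars, Nars, Sars, Wars and Yars. They were taken by these names, a choice made with earlier results of these data known, and are 10 of 24319 named rows. FPKM is fragments per kilobase of transcript, scaled to the reads of the library. All 10 were among the 11783 genes that averaged 0.5 FPKM or more and were tested. The cells were C2C12 myotubes, a mouse muscle line grown to its differentiated form, and every culture received mouse serum for 24 hr before poly-A RNA was sequenced. The serum came from mice lacking Bmal1 in the liver (Bmal1hep-/-) or from wild-type (WT) mice, taken in each genotype at zeitgeber time 16 (ZT16, night) or 4 (ZT4, day). This gave 4 groups of 4 libraries, named here Bmal1hep-/- ZT16, Bmal1hep-/- ZT4, WT ZT16 and WT ZT4, and the question was how donor genotype and time of day show in the transcripts of the recipient cells. Bmal1 is the core clock activator. Its deletion was in the liver of the donors, the recipient cells were the same in all groups, and no transcript measured here checks it. The sources used here do not give the promoter that drove the deletion, the age of the mice or whether sera were pooled. The labels call the libraries biological replicates but do not say what was separate, so each p-value rests on the spread among these libraries, which may be technical.

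The deposited values are FPKM without read counts. Read from the steps between low values, the shallowest library had 65.5% of the depth of the deepest, which was WT ZT4 replicate 2. Summed FPKM ran from 580818 to 690636, and 14234 to 14877 genes were above 0. Of 14 myotube markers, 13 averaged at least 1 FPKM, with a summed level of 5926 to 8867 FPKM. None of 6 hepatocyte markers averaged 1 FPKM, with Ttr and Fgb at 0 in every library. Markers of blood cells summed to 0.422 to 2.86 FPKM. The summed markers of undifferentiated or cycling myoblasts ran from 208 to 260.5 FPKM. Of these Ccnb1 averaged 100.5 FPKM, Top2a 99.85, Mki67 26.33, Myf5 13.12 and Pax7 3.36. The fibroblast markers ran from 52.7 to 73.0 FPKM. The part of both lists in the results was not tested.

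Aminoacyl-tRNA synthetases join each amino acid to its own transfer RNA, and the charged tRNA is what the ribosome reads. The enzymes fall into class I (here Cars, Iars, Mars, Wars and Yars) and class II (Aars, Gars, Nars and Sars), which differ in the fold of the catalytic domain, and Eprs carries a domain of each. In mammals Eprs, Iars and Mars sit in the multisynthetase complex, while the others act as free enzymes. When amino acids run short, uncharged tRNA activates the kinase GCN2, phosphorylated eIF2alpha lowers general translation, and the translation of the transcription factor ATF4 rises. ATF4 induces amino acid transporters, enzymes of serine and asparagine synthesis and many cytosolic synthetases. Stress of the endoplasmic reticulum (ER) reaches ATF4 through another eIF2alpha kinase, PERK.

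Synthetase transcripts were abundant in the myotube cultures. Their order of level on the FPKM scale, which is per transcript length, was much the same in all libraries. Nars, which charges asparagine, averaged 237 ± 25.04 FPKM (SD, n = 16 libraries here and in the rest of this paragraph) and Gars, for glycine, 203 ± 19.2. Sars, for serine, had 108 ± 12.9, and Aars, for alanine, 99.3 ± 10.1. Each of these genes was above the next one down in 16 of 16 libraries. Mars, for methionine, averaged 76.1 ± 3.40 FPKM and Eprs, which charges both glutamate and proline, 75.5 ± 9.50. Mars was above Eprs in 10 of 16 libraries and Eprs above Iars, for isoleucine (71.2 ± 6.42), in 12, so these neighbours did not differ beyond their spread. Yars, for tyrosine, had 55.3 ± 3.83 FPKM and Wars, for tryptophan, 52.4 ± 10.2, with Yars above Wars in 12 of 16. Cars, for cysteine, was lowest at 42.9 ± 3.34 FPKM and lay below Wars in every library. In bulk samples fewer cells of a type and less RNA per cell cannot be told apart, and this holds for all levels given here. The means stood between the 80.9th and the 96.7th percentile of the genes tested.

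Of the class II enzymes that act alone, Nars measured 258.5, 231, 238 and 223.5 FPKM in replicates 1 to 4 of Bmal1hep-/- ZT16 and 312, 236, 232 and 235 FPKM in those of Bmal1hep-/- ZT4. It measured 212, 219, 219 and 225 FPKM in WT ZT16 and 226, 273, 231 and 225.5 FPKM in WT ZT4. All 4 WT ZT16 libraries were below all 4 of WT ZT4, but barely, with a highest value of 224.9 FPKM against a lowest of 225.5. The groups of the other comparisons overlapped. Gars, a gene of inherited motor neuropathy in humans, had 224, 187.5, 195 and 192 FPKM in replicates 1 to 4 of Bmal1hep-/- ZT16 and 240.3, 196, 217 and 207 FPKM in those of Bmal1hep-/- ZT4. Its values were 184, 195, 192 and 191 FPKM in WT ZT16 and 199, 247.5, 186 and 198 FPKM in WT ZT4. The highest Gars value was in WT ZT4 and the lowest in WT ZT16, and the groups overlapped in each comparison.

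Sars was at 114, 105.5, 102 and 94.0 FPKM in replicates 1 to 4 of Bmal1hep-/- ZT16 and 141, 115, 111 and 107.5 FPKM in those of Bmal1hep-/- ZT4. In the cultures with WT serum it was at 103, 97.0, 104 and 103 FPKM in WT ZT16 and 101, 134, 97.0 and 101 FPKM in WT ZT4. Single libraries led both ZT4 groups, replicate 1 under Bmal1hep-/- serum and replicate 2 under WT serum. Aars, whose product can also remove serine or glycine wrongly joined to its tRNA, had 103, 99.6, 95.8 and 91.4 FPKM in replicates 1 to 4 of Bmal1hep-/- ZT16 and 130.4, 101, 98.05 and 95.7 FPKM in those of Bmal1hep-/- ZT4. Its levels under WT serum were 94.1, 96.5, 95.5 and 95.65 FPKM in WT ZT16 and 92.7, 115, 90.4 and 93.5 FPKM in WT ZT4. The same single libraries stood out, and the remaining 14 values of Aars lay between 90.4 and 103 FPKM. Aars shares 14.3% of its exonic bases with Exosc6 on the same strand, and the sources used here do not say how shared reads were counted.

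Among the class I enzymes outside the complex, Wars, which interferon-gamma is known to induce, had the widest spread. It measured 52.5, 53.2, 57.2 and 46.2 FPKM in replicates 1 to 4 of Bmal1hep-/- ZT16 and 85.1, 59.8, 56.5 and 45.7 FPKM in those of Bmal1hep-/- ZT4. Under WT serum it measured 49.3, 46.3, 45.7 and 44.0 FPKM in WT ZT16 and 47.1, 56.95, 43.2 and 49.1 FPKM in WT ZT4. One library of Bmal1hep-/- ZT4 was far above the others. Replicates 3 and 4 of that group were in the range of the WT groups, which reached 56.95 FPKM. Yars had 56.8, 55.75, 52.4 and 52.6 FPKM in replicates 1 to 4 of Bmal1hep-/- ZT16 and 61.8, 54.3, 54.2 and 54.8 FPKM in those of Bmal1hep-/- ZT4. It had 53.1, 52.0, 54.6 and 53.35 FPKM in WT ZT16 and 54.2, 66.8, 54.5 and 53.5 FPKM in WT ZT4, and its groups were narrow apart from the highest library of each ZT4 group. Cars had 46.0, 40.7, 42.2 and 39.85 FPKM in replicates 1 to 4 of Bmal1hep-/- ZT16 and 48.1, 40.7, 45.2 and 45.1 FPKM in those of Bmal1hep-/- ZT4. It had 41.7, 39.8, 40.3 and 40.0 FPKM in WT ZT16 and 41.9, 50.5, 39.6 and 45.2 FPKM in WT ZT4, and the groups overlapped in each comparison.

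Of the complex members, Eprs measured 84.2, 82.0, 72.1 and 71.0 FPKM in replicates 1 to 4 of Bmal1hep-/- ZT16 and 103, 73.7, 78.8 and 60.6 FPKM in those of Bmal1hep-/- ZT4. It measured 70.05, 69.1, 76.7 and 73.4 FPKM in WT ZT16 and 69.2, 82.5, 70.65 and 70.5 FPKM in WT ZT4. Bmal1hep-/- ZT4 held both its highest and its lowest library. Iars behaved alike in that group, at 86.5, 66.9, 71.5 and 58.5 FPKM, against 71.7, 72.5, 72.9 and 70.5 FPKM in Bmal1hep-/- ZT16. The WT groups had Iars at 65.5, 68.2, 73.1 and 67.5 FPKM in WT ZT16 and 70.9, 82.8, 71.9 and 68.8 FPKM in WT ZT4. Mars, whose product also charges the initiator tRNA, was at 82.1, 75.8, 71.6 and 75.9 FPKM in replicates 1 to 4 of Bmal1hep-/- ZT16 and 73.0, 75.03, 73.9 and 75.55 FPKM in those of Bmal1hep-/- ZT4. Under WT serum Mars was at 76.1, 75.5, 74.5 and 79.4 FPKM in WT ZT16 and 76.4, 84.6, 72.3 and 75.6 FPKM in WT ZT4. Its libraries lay closest together of the 10 genes.

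**Figure D1:**
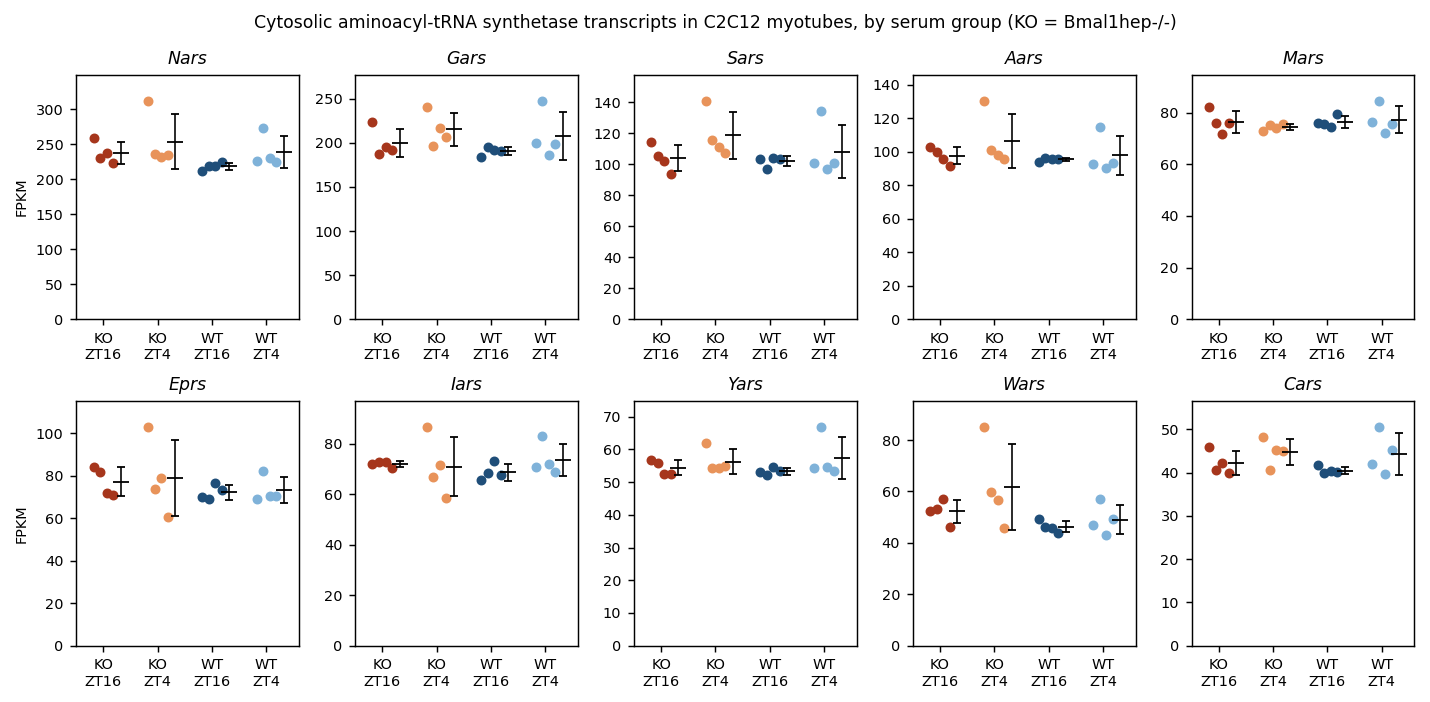
FPKM (vertical axis, from 0) of each synthetase in every library of the 4 serum groups, with replicates 1 to 4 from left to right and the group mean ± SD (n = 4) as black bars. In most panels 1 library of Bmal1hep-/- ZT4 and 1 of WT ZT4 lie above the rest. The groups overlap in each comparison except for Nars between WT ZT16 and WT ZT4, where they nearly touch.

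The highest values of these genes were in single libraries of the ZT4 groups. Bmal1hep-/- ZT4 replicate 1 held the highest value of 6 of the 10 genes and WT ZT4 replicate 2 that of the other 4. In the first, 9 genes were above all 14 remaining libraries, with Mars as the exception at 73.0 FPKM, above 2 of the 14. In the second, 8 genes were above all 14, the exceptions being Eprs (above 13) and Wars (above 12). For 7 genes these were the 2 highest libraries. The mean of the 10 genes, each centred on its own mean of log2(FPKM+1), was 0.31 in Bmal1hep-/- ZT4 replicate 1, 0.22 in WT ZT4 replicate 2 and between -0.09 and 0.09 in the others. Within groups the SD of this mean was 0.07 in Bmal1hep-/- ZT16, 0.17 in Bmal1hep-/- ZT4, 0.02 in WT ZT16 and 0.14 in WT ZT4 (n = 4 each). The WT ZT16 libraries lay closest together and the ZT4 libraries widest. Estimated depth was 74.2% of the deepest library in Bmal1hep-/- ZT4 replicate 1, while WT ZT4 replicate 2 is that deepest library. Bmal1hep-/- ZT16 replicate 1 (97.6%) and WT ZT4 replicate 3 (96.6%) were nearly as deep. Their means of the 10 genes were 0.09 and -0.09. The part of depth in these values was not tested. Leaving out either library or both turned many estimates of the comparisons below or moved them by over 1.5 times. Values without these libraries stand beside many of those estimates but not all, so a missing value does not mark a stable estimate.

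**Figure D2:**
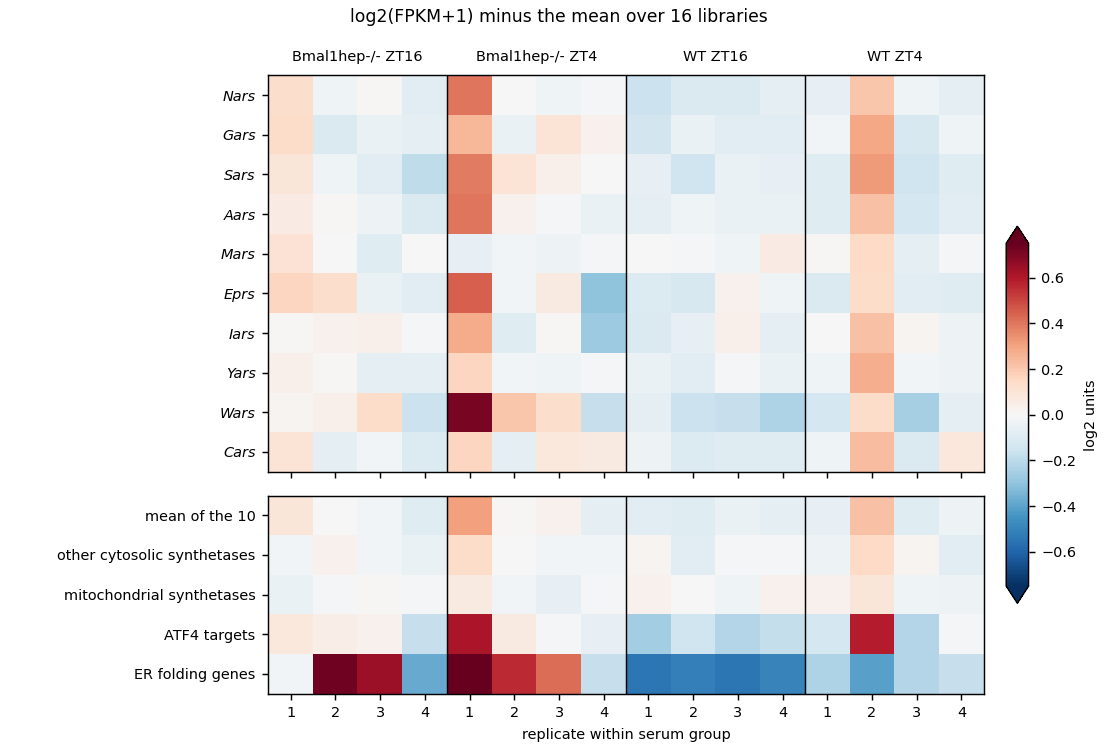
Colour map of log2(FPKM+1) minus the mean over 16 libraries for the 10 synthetases (upper rows) and for the means of gene lists (lower rows), with libraries in columns by serum group; the colour scale ends at 0.75 log2 units, and the ER folding value of 1.36 in Bmal1hep-/- ZT4 replicate 1 is beyond it. Bmal1hep-/- ZT4 replicate 1 and WT ZT4 replicate 2 are the columns in which most synthetases and the ATF4 targets are high together.

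Across the 16 libraries the synthetases varied together, apart from Mars. Over the 45 pairs of genes the median Pearson correlation of log2(FPKM+1) was 0.72 (-0.12 to 0.95), and 0.78 (0.46 to 0.95) over the 36 pairs without Mars. Without Bmal1hep-/- ZT4 replicate 1 and WT ZT4 replicate 2 the medians were 0.42 over all pairs and 0.46 without Mars. The points share libraries and their scaling, so these values are descriptions. Aars followed the mean of the other 9 genes most closely (r = 0.96, 0.81 over 14 libraries), and Sars and Aars were the closest pair (0.95, 0.84 over 14). Sars, Nars and Gars had r = 0.94, 0.93 and 0.86 with the mean of the others. Among the complex members Eprs and Iars had a correlation of 0.85, and 0.73 over 14 libraries. Both were lowest in Bmal1hep-/- ZT4 replicate 4, which is among the 14. Over 14 libraries Iars had 0.02, -0.05 and -0.16 with the free enzymes Aars, Gars and Sars, while Eprs had 0.60, 0.24 and 0.42. Gars and Cars, which belong to different classes, had 0.92 and 0.81. Mars had 0.23 with the other 9 (0.28 over 14 libraries), 0.14 with Eprs (0.31) and 0.11 with Iars (-0.15), its partners in the complex. Its residual SD of 0.07 log2 units was at the 4.8th percentile of the genes tested, while that of Wars (0.21) was at the 86.5th.

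**Figure D3:**
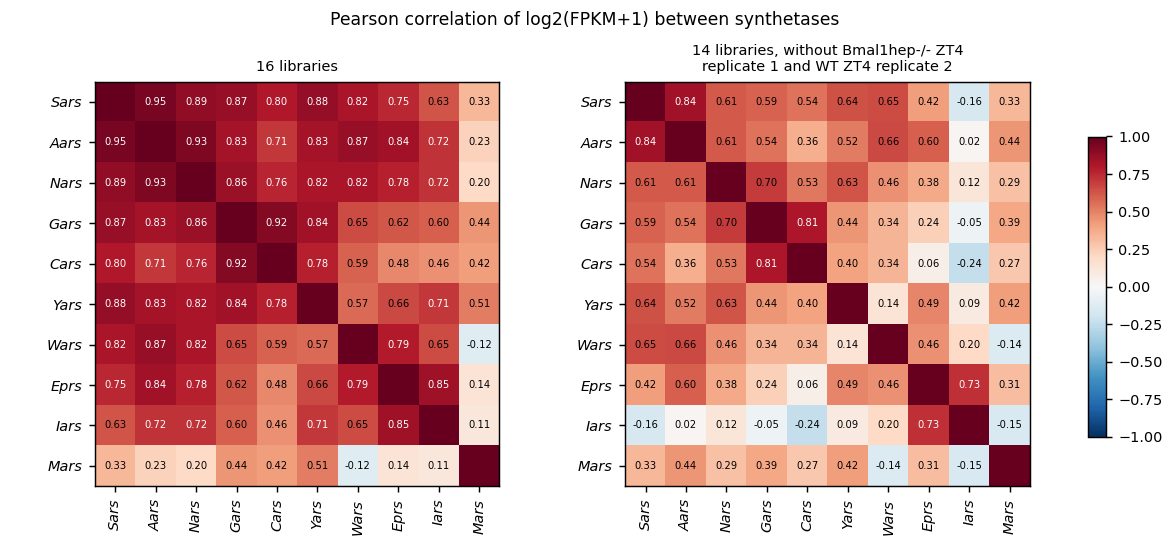
Pearson correlations of log2(FPKM+1) for each pair of synthetases over 16 libraries (left) and over 14 libraries (right), coloured from -1 to 1. Most pairs are lower in the right panel, where the median over 45 pairs is 0.42 against 0.72, and Mars is low in both.

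The transcripts most like the synthetases included several of amino acid transport and synthesis. Of the 11773 other genes tested, 18 had a correlation over 0.9 with the mean of the 10 over 16 libraries, and 0 did over 14. The 8 closest were Slc1a4, a transporter of small neutral amino acids (r = 0.963), Aldh18a1, which starts proline synthesis (0.962), Slc7a11, the cystine transporter (0.955), Bcat1, a branched-chain aminotransferase (0.951), Tbc1d31 (0.948), the leucyl-tRNA synthetase Lars (0.945), the lipoprotein receptor Vldlr (0.942) and Psat1 of serine synthesis (0.938). Slc1a4, Aldh18a1, Slc7a11, Vldlr and Psat1 are also on the list of ATF4 targets used here. Over 14 libraries the correlations of the 8 genes were 0.75 to 0.86. Slc7a11 was at 7.23 FPKM in Bmal1hep-/- ZT4 replicate 1 and 7.32 in WT ZT4 replicate 2, with a median of 2.47 in the other libraries. Psat1 was at 396 FPKM in Bmal1hep-/- ZT4 replicate 1 and 373 in WT ZT4 replicate 2, with a median of 316 in the others.

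Whole lists were compared by their means. The mean of the 10 synthetases had a correlation of 0.96 with 39 tested ATF4 targets other than synthetases (0.81 over 14 libraries). Single genes of this list, which includes Atf4 itself (0.74), ran from -0.17 (Cebpb) to 0.96 (Aldh18a1) over 16 libraries. The synthetase mean had 0.80 with the 11 remaining cytosolic synthetases (0.13 over 14). It had 0.49 with 20 genes of mitochondrial tRNA charging (-0.58 over 14) and 0.58 with 17 ER folding genes (0.63 over 14). ATF4 targets averaged 0.61 log2 units above their own mean in Bmal1hep-/- ZT4 replicate 1 and 0.59 in WT ZT4 replicate 2, and ran from -0.26 to 0.08 in the other libraries. ER folding genes averaged 1.36 in the first and -0.41 in the second, so the 2 libraries that were alike in synthetases and ATF4 targets were apart in ER chaperones. Wars was the synthetase closest to the ER list (0.84, and 0.85 over 14 libraries), and Mars the farthest (-0.42 and -0.30). The correlation with the ATF4 list was 0.93 for Aars and Nars, 0.92 for Sars, 0.83 for Wars, 0.73 for Iars and 0.30 for Mars. Over 14 libraries it was 0.73 for Aars, 0.77 for Nars, 0.66 for Sars, 0.09 for Iars and 0.13 for Mars. Wars had 0.78 over 14, the highest of the 10, so it was close to both lists.

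**Figure D4:**
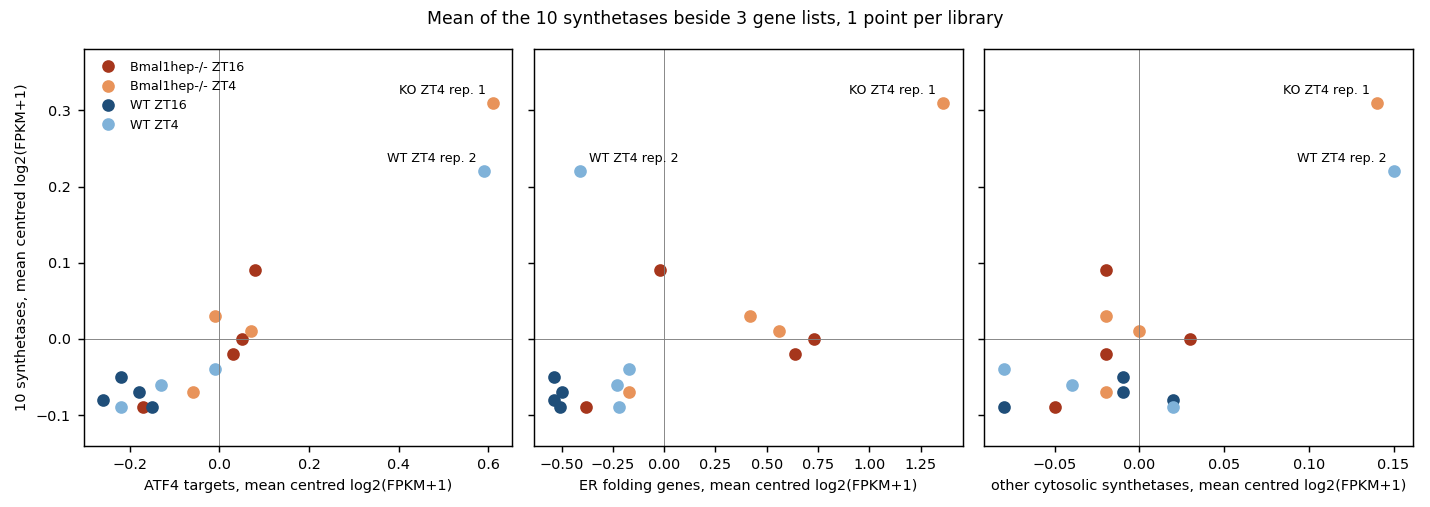
Mean centred log2(FPKM+1) of the 10 synthetases (vertical axis) beside that of ATF4 targets, ER folding genes and the other cytosolic synthetases (horizontal axes), 1 point per library coloured by serum group. Bmal1hep-/- ZT4 replicate 1 and WT ZT4 replicate 2 are at the upper right beside the ATF4 targets, but at opposite sides beside the ER folding genes (1.36 and -0.41).

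The promoters of the 10 genes were searched for TGATGNAA, the core of the element that ATF4 binds with C/EBP partners, on both strands from 250 bases before to 50 bases after the RefSeq start (GRCm38.p6). Promoters were found for 7 of the 10 genes, Aars, Eprs, Gars, Iars, Mars, Sars and Yars, and not for Cars, Nars and Wars. The motif was in 4 of the 7, with 2 matches in Aars and 1 each in Gars, Iars and Yars, against 4.51% of 27025 genes with a promoter window of the same length. It was in 11 of 34 ATF4 targets with a promoter, in 1 of 7 remaining cytosolic synthetases (Tars) and in 0 of 16 mitochondrial genes. CACGTG, the E-box that CLOCK and BMAL1 bind among other factors, was in Aars and Iars and in 8.09% of genes. TGACGTCA, the cyclic AMP response element, was in 0 of the 7 and in 2.03% of genes. The windows that hold TGATGNAA are shown 5′ to 3′ on the plus strand, which is the strand of all 4 genes, from RefSeq GRCm38.p6, with the motif in capitals, written as its reverse complement where it lies on the minus strand.
Aars, 250 bases before the start, chr8:111033592-111033841: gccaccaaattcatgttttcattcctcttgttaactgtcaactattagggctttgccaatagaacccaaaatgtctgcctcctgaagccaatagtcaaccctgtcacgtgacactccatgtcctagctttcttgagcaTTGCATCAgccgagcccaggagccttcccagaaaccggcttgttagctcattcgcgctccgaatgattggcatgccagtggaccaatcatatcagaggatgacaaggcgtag
Aars, bases around the match after the start, chr8:111033840-111033869: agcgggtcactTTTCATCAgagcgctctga
Gars, 250 bases before the start, chr6:55037751-55038000: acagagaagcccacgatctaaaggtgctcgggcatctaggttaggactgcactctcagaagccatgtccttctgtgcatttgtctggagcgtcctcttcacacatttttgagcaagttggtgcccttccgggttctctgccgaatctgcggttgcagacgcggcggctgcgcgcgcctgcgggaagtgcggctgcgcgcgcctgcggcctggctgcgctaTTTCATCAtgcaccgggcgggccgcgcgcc
Iars, bases around the match, chr13:49682126-49682155: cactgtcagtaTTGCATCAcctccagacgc
Yars, bases around the match, chr4:129189895-129189924: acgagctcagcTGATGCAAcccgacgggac
The matches begin 112 bases before and 10 bases after the start in Aars, 30 before it in Gars, 8 after it in Iars and 4 after it in Yars. The E-box of Aars lies in the first of these windows, in lower case. A match is a string of letters and not a measured binding site, and Sars, with a correlation of 0.92 with the ATF4 list (0.66 over 14 libraries), had none of the 3 motifs in its window.

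At ZT16 the comparison of Bmal1hep-/- with WT serum asked what the liver clock of the donor changes at night. None of the 10 synthetases passed (limma, adjusted p under 0.05), where 0.0509% of all genes did, and 0 had an unadjusted p under 0.05, where 12.7% did. No gene's groups were apart, against 11.9% of all genes. Nars averaged 238 ± 15.05 FPKM in Bmal1hep-/- ZT16 and 219 ± 5.28 in WT ZT16 (SD, n = 4 each here and in the comparisons that follow), a log2 difference of 0.12 ± 0.09 (SE, adjusted p = 0.595). Wars averaged 52.3 ± 4.54 FPKM in Bmal1hep-/- ZT16 and 46.3 ± 2.22 in WT ZT16, a difference of 0.17 ± 0.13 (adjusted p = 0.620). Eprs differed by 0.09 ± 0.11, Cars by 0.06 ± 0.07 and Mars by -0.002 ± 0.05. Without Bmal1hep-/- ZT16 replicate 1 Nars differed by 0.08, Eprs by 0.05 and Cars by 0.02. In 9 of 10 genes the estimate was higher under Bmal1hep-/- serum, with a median of 0.06 log2 units (all genes: 0.005). The median was 0.01 without Bmal1hep-/- ZT16 replicate 1, and 0.17 when libraries were scaled to equal summed FPKM, which also moved the median of all genes to 0.10.

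At ZT4 the same genotypes were compared under day serum. None of the synthetases passed, where 0.00849% of all genes did, and no gene's groups were apart, against 3.93%. Wars was the 1 gene with an unadjusted p under 0.05, where 10.3% of all genes had one. It averaged 61.8 ± 16.65 FPKM in Bmal1hep-/- ZT4 and 49.1 ± 5.78 in WT ZT4, a log2 difference of 0.30 ± 0.13 (95% interval 0.02 to 0.58, adjusted p = 0.460, 0.183 to 0.801 over the alternatives). Without Bmal1hep-/- ZT4 replicate 1 the difference of Wars was 0.13, and without that library and WT ZT4 replicate 2 it was 0.21. Sars averaged 119 ± 15.2 FPKM in Bmal1hep-/- ZT4 and 108 ± 17.3 in WT ZT4 (0.14 ± 0.10, adjusted p = 0.666). Aars averaged 106 ± 16.2 FPKM in Bmal1hep-/- ZT4 and 97.9 ± 11.46 in WT ZT4 (0.11 ± 0.09). Without Bmal1hep-/- ZT4 replicate 1 Sars differed by 0.05 and Aars by 0.01, and without WT ZT4 replicate 2 Sars by 0.24 and Aars by 0.19. Iars and Mars had the lowest estimates, at -0.06 and -0.05. Iars was at -0.16 without Bmal1hep-/- ZT4 replicate 1 and at 0.02 without replicate 4 of that group, and Mars at -0.007 without WT ZT4 replicate 2 and 0.002 without both high libraries. The estimate was higher under Bmal1hep-/- serum in 7 of 10 genes, with a median of 0.07 (all genes: -0.008). This median was -0.02 without Bmal1hep-/- ZT4 replicate 1, 0.14 without WT ZT4 replicate 2, 0.05 without both and -0.009 with the same summed FPKM, where the median of all genes was -0.07.

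Under WT serum, night was compared with day. None of the synthetases passed and none had an unadjusted p under 0.05, where 0% and 3.97% of all genes did. All 10 estimates were lower at ZT16, with a median of -0.09 log2 units (all genes: 0.001). Nars averaged 219 ± 5.28 FPKM in WT ZT16 and 239 ± 23.1 in WT ZT4 (-0.12 ± 0.09, adjusted p = 0.999). It was the 1 gene whose groups did not overlap, against 4.35% of all genes, and they nearly touched (224.9 FPKM in WT ZT16, 225.5 in WT ZT4). Cars averaged 40.4 ± 0.835 FPKM in WT ZT16 and 44.3 ± 4.745 in WT ZT4 (-0.12 ± 0.07). Gars averaged 190.5 ± 4.96 FPKM in WT ZT16 and 208 ± 27.15 in WT ZT4 (-0.12 ± 0.08). For Yars the means were 53.3 ± 1.07 FPKM in WT ZT16 and 57.3 ± 6.37 in WT ZT4 (-0.10 ± 0.07). Mars had -0.01 ± 0.05. Without WT ZT4 replicate 2 the median of the 10 was -0.01, Nars -0.06, Cars -0.06, Gars -0.03 and Yars -0.02, and Mars turned to 0.03. With the same summed FPKM the median was -0.17, where that of all genes was -0.075.

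Under Bmal1hep-/- serum the synthetases were likewise not called between night and day, where 0.0170% of all genes were, and 0 had an unadjusted p under 0.05, where 11.9% did. The groups overlapped in every synthetase, and were apart in 5% of all genes (589). Sars averaged 104 ± 8.41 FPKM in Bmal1hep-/- ZT16 and 119 ± 15.2 in Bmal1hep-/- ZT4 (-0.18 ± 0.10, adjusted p = 0.475). Wars averaged 52.3 ± 4.54 FPKM in Bmal1hep-/- ZT16 and 61.8 ± 16.65 in Bmal1hep-/- ZT4 (-0.21 ± 0.13, adjusted p = 0.561). Aars and Gars each differed by -0.11, and Mars had the highest estimate at 0.04. In 8 of 10 genes the estimate was lower at ZT16, with a median of -0.08 (all genes: 0.006). Without Bmal1hep-/- ZT4 replicate 1 the median was -0.007, Sars -0.10, Wars -0.04, Aars -0.01 and Gars -0.05, while Wars was at -0.34 without replicate 4 of that group. With the same summed FPKM the median was 0.02, where that of all genes was 0.10.

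**Figure D5:**
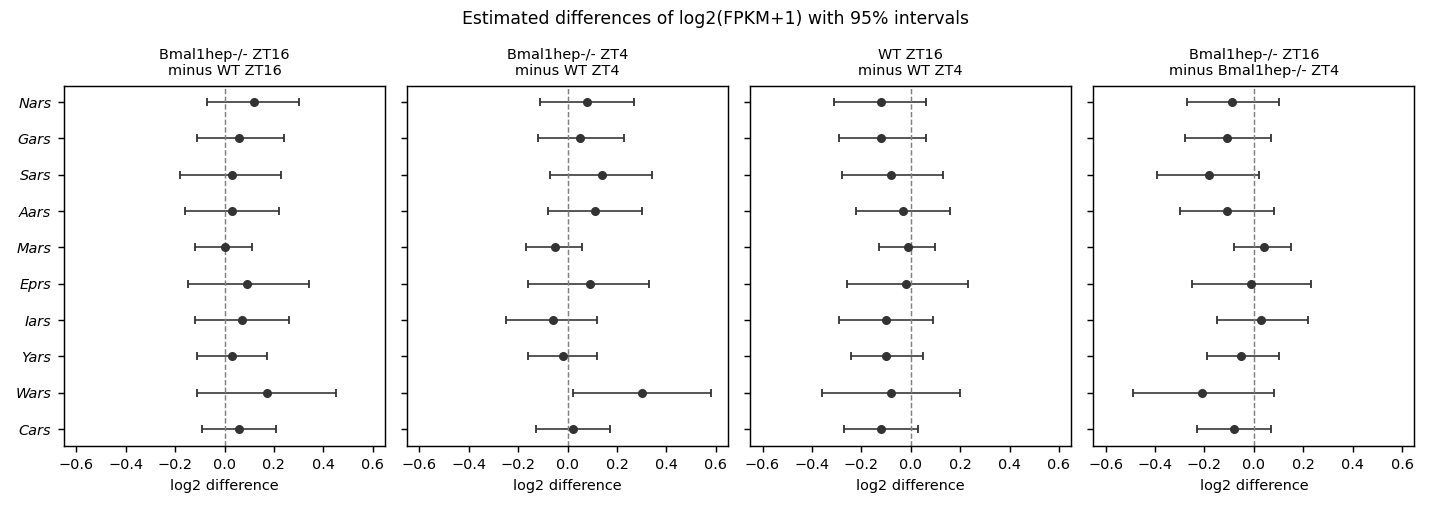
Estimated differences of log2(FPKM+1) (horizontal axes) with 95% intervals, unadjusted, from the fit of all 4 groups for each synthetase in the 4 pairwise comparisons. The interval of Wars in Bmal1hep-/- ZT4 minus WT ZT4 (0.02 to 0.58) is the 1 that does not reach 0, and its adjusted p was 0.460.

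The time difference under Bmal1hep-/- serum minus that under WT serum (the interaction) was not called for any synthetase, where 0.0934% of all genes were called, and 0 of 10 had an unadjusted p under 0.05, where 10.3% did. Iars had the highest estimate, 0.13 ± 0.13 log2 units (adjusted p = 0.759), and Wars the lowest, -0.13 ± 0.19 (adjusted p = 0.861). Sars had -0.11 ± 0.14. Iars was at 0.23, Sars at -0.02 and Wars at 0.035 without Bmal1hep-/- ZT4 replicate 1. Without WT ZT4 replicate 2 Sars was at -0.21, and without Bmal1hep-/- ZT4 replicate 4 Iars was at 0.05 and Wars at -0.26. The estimate was higher in 7 of 10 genes, with a median of 0.02 (all genes: 0.009), which was -0.04 without WT ZT4 replicate 2, 0.07 without Bmal1hep-/- ZT4 replicate 1 and 0.003 without both. Averaged over both times, Bmal1hep-/- minus WT serum gave 0 calls among the 10 and 0% among all genes. Wars alone had an unadjusted p under 0.05, where 11.8% of all genes had one, with a difference of 0.23 ± 0.09 (95% interval 0.03 to 0.43, adjusted p = 0.340, 0.083 to 0.498 over the alternatives), and 0.15 without Bmal1hep-/- ZT4 replicate 1. Nars differed by 0.10 (0.05 without Bmal1hep-/- ZT4 replicate 1) and Mars by -0.03 (0.000 without both high libraries). The intervals of the 9 genes other than Wars lay between -0.13 and 0.26. The median of the 10 was 0.07 (all genes: -0.003), 0.02 without Bmal1hep-/- ZT4 replicate 1 and 0.11 without WT ZT4 replicate 2. Averaged over genotypes, ZT16 minus ZT4 gave 0 calls among the 10 and 0% among all genes, and 0 unadjusted p under 0.05 against 4.57%. In 9 of 10 genes the estimate was lower at ZT16 (median -0.09, -0.05 without Bmal1hep-/- ZT4 replicate 1, and -0.015 without Bmal1hep-/- ZT4 replicate 1 and WT ZT4 replicate 2). Gars had -0.11, Cars -0.10, Wars -0.14 and Mars 0.01. Without both libraries Gars had -0.04, Cars -0.05, Wars -0.02 and Mars 0.03, and Wars had -0.06 without Bmal1hep-/- ZT4 replicate 1 alone.

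Genes of the same pathway were not called in any of the 7 comparisons (limma, adjusted p under 0.05). The lists were chosen with earlier results of these data known, and their calls are read beside those of all genes above. For their directions, 51.4% of all genes were higher under Bmal1hep-/- than WT serum at ZT16 and 47.3% at ZT4. Between ZT16 and ZT4, 50.3% of all genes were higher at ZT16 under WT serum and 51.7% under Bmal1hep-/- serum. Among the 11 remaining cytosolic synthetases, Tarsl2, a second threonyl-tRNA synthetase, differed by 0.23 ± 0.09 between Bmal1hep-/- and WT serum at ZT16 (adjusted p = 0.313), and the lysyl-tRNA synthetase Kars by -0.11 ± 0.06. Their median in that comparison was -0.02, with 5 of 11 higher. Of the 3 scaffold proteins of the multisynthetase complex, Aimp1 differed by 0.14 ± 0.06 between Bmal1hep-/- and WT serum at ZT4 (adjusted p = 0.454) and by -0.20 ± 0.06 between ZT16 and ZT4 under Bmal1hep-/- serum (adjusted p = 0.246). The 20 mitochondrial genes had medians between -0.05 and 0, and between -0.05 and 0.02 without Bmal1hep-/- ZT4 replicate 1 and WT ZT4 replicate 2. Of 9 kinases and regulators of eIF2alpha, the smallest p for Bmal1hep-/- against WT serum averaged over times was that of Eif2ak3, which encodes PERK (0.32 ± 0.10, adjusted p = 0.219, and 0.21 without both libraries). Eif2ak4, which encodes GCN2, was at 4.15 to 6.04 FPKM. Elongation factors that carry or follow charged tRNA had a median of -0.11 at ZT16 between genotypes (0 of 5 higher). They were led by Eef1b2 (-0.15 ± 0.06, adjusted p = 0.289). The 4 proofreading genes had a median of -0.10 (0 of 4 higher). At ZT4 the medians were 0.0 (3 of 5 higher) and 0.08 (3 of 4 higher). The lists were not summarised with the same summed FPKM, which moved the median of all genes to 0.10 at ZT16. Of the proofreading genes, Prorsd1 frees tRNA for proline from a wrong amino acid. It differed by -0.35 ± 0.09 between ZT16 and ZT4 under Bmal1hep-/- serum (adjusted p = 0.212).

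ATF4 targets had 0 calls of 39 in each comparison. Between Bmal1hep-/- and WT serum 35 of 39 estimates were higher at ZT16 (median 0.14) and 27 at ZT4 (0.07), against medians of 0.06 and 0.07 for the 10 synthetases. The ZT4 direction turned without Bmal1hep-/- ZT4 replicate 1, with 9 of 39 higher and a median of -0.05, and without WT ZT4 replicate 2 it was 37 of 39 and 0.25. Without both it was 30 of 39 and 0.10. Between ZT16 and ZT4 38 of 39 were lower under WT serum (median -0.20) and 35 under Bmal1hep-/- serum (-0.13). Without WT ZT4 replicate 2 it was 32 of 39 under WT serum (median -0.08), and without Bmal1hep-/- ZT4 replicate 1 it was 23 of 39 under Bmal1hep-/- serum (-0.01). Ddit3, the stress factor CHOP, had the smallest p for the average over times (0.93 ± 0.28, adjusted p = 0.208), and Gdf15, a stress hormone, differed by 0.64 ± 0.26 at ZT16 (adjusted p = 0.332). Ddit3 overlaps Mars on the opposite strand by 68 bases, 1.99% of the exonic bases of Mars, and the sources used here do not say whether counting used strand. ER folding genes had 17 of 17 estimates higher under Bmal1hep-/- serum at both times, with medians of 0.79 at ZT16 and 0.74 at ZT4. They had 0 calls (smallest adjusted p = 0.230 and 0.268). The unadjusted p (limma) was under 0.05 in 16 of 17 at ZT16 and 17 of 17 at ZT4. Among all genes 12.7% and 10.3% had one. The genes share libraries, so these counts are not independent. The ZT4 median was 0.48 without Bmal1hep-/- ZT4 replicate 1 and 0.45 without both libraries, again with 17 of 17 higher. No ZT16 library was left out for the lists. The mean of the ER list ran from -0.38 to 0.73 log2 units in Bmal1hep-/- ZT16 and from -0.54 to -0.50 in WT ZT16. It was -0.17 in replicate 4 of both Bmal1hep-/- ZT4 and WT ZT4. Sdf2l1, part of the ER chaperone complex, differed by 1.37 ± 0.40 at ZT16 and 1.41 ± 0.40 at ZT4 (0.93 without both libraries). At the same times the synthetase closest to this list, Wars, differed by 0.17 at ZT16 and 0.30 at ZT4 (0.21 without both libraries).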

How the data were processed

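Per the labels, poly-A RNA of 16 myotube cultures was sequenced after random-primed cDNA synthesis, and the authors deposited 1 table of FPKM values. The submitters' processing notes name FastQC 0.11.8 and STAR, and the builds mm10 and GRCm39 without their roles. The sources used here do not name the program that gave FPKM. Of 24346 rows, 27 with symbols turned into dates were left out and 7121 were 0 in every library. Values were used as log2(FPKM+1) without further scaling. Genes with a mean of at least 0.5 FPKM (11783) were fitted with limma 3.58.1 in R 4.3.3 over all 4 groups, with eBayes trend, 12 residual degrees of freedom and Benjamini-Hochberg adjustment over all genes within each of 7 comparisons at 0.05. Differences are on the log2(FPKM+1) scale, which understates changes of low genes. The fit was tested on simulated data. FPKM without counts leaves the depth of each gene unknown, so relative depth was read from the steps of values whose FPKM times length was under 150 (bandwidth 0.02).

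The 10 genes and all lists were chosen with earlier results of these data known. All 10 were named, and of each list the genes that passed or otherwise the 2 with the smallest p in a comparison, of which the text gives some. The 8 genes most like the 10 were those with the highest Pearson correlation with their mean. Overlaps come from GENCODE M21 exons. Promoters come from RefSeq GRCm38.p6. Python 3.11.15, pandas 2.3.3 and matplotlib 3.10.9 made the tables and figures. Alternatives were a pseudocount of 0.1, no filter, a mean of at least 2 FPKM, the same summed FPKM per library, median-ratio scaling, library weights, only the groups compared, a length trend removed (spline with 5 degrees of freedom), a replicate block and each library left out. Leaving out 2 libraries together and a block by column names were added after seeing the data.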

Additional observations from a re-analysis of the deposited data

Results flagged for a closer look

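In 40 combinations of gene and group, 9 had 1 library far from the other 3 (gap over range above 0.829), where chance gives about 1 in 20 and 5.22% of all tested genes and groups had one. The 40 are not independent, since 8 of the 9 are in 2 libraries and the genes vary together, so no excess is read from the count. In Bmal1hep-/- ZT4 replicate 1 these were Aars at 130.4 FPKM (others 95.7 to 101), Nars at 312 (232 to 236) and Yars at 61.8 (54.2 to 54.8). In WT ZT4 replicate 2 they were Aars at 115 FPKM (others 90.4 to 93.5), Eprs at 82.5 (69.2 to 70.7), Nars at 273 (225.5 to 231), Sars at 134 (97.0 to 101) and Yars at 66.8 (53.5 to 54.5). Sars at 97.0 FPKM in WT ZT16 replicate 2 was below the other libraries of its group (103 to 104). Causes of these values were not tested.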

How the results depend on the processing

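Of the 10 synthetases 0 were called in each of the 7 comparisons under every alternative run. Counts over all genes moved with the setting: between Bmal1hep-/- and WT serum at ZT16, 6 genes were called, against 254 with library weights and 0 without the filter, and in the interaction 11, against 127 and 3. At ZT4 the count was 1 and ran from 0 to 16, over time under WT serum 0 and up to 19, over time under Bmal1hep-/- serum 2 and up to 62 without Bmal1hep-/- ZT4 replicate 1, and between genotypes averaged over times 0 and up to 166 without Bmal1hep-/- ZT4 replicate 4. With the same summed FPKM the median of the 10 was 0.209 in the interaction (0.17 for all genes), and Mars at ZT16 between genotypes was 0.108, Sars in the interaction 0.077 and Wars in the interaction 0.055, each with its sign reversed. Without Bmal1hep-/- ZT4 replicate 1 and WT ZT4 replicate 2, Mars reversed to 0.002 between genotypes at ZT4, 0.030 over time under WT serum and 0.000 between genotypes averaged over times. With 1 library left out, the estimate of Mars ran from -0.037 to 0.028 between genotypes at ZT16, from -0.045 to 0.030 over time under WT serum and from -0.007 to 0.033 over time averaged over genotypes. Iars ran from -0.164 to 0.021 between genotypes at ZT4, and Wars from -0.259 to 0.035 in the interaction. The causes were not tested.

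A replicate block by the numbers in the titles gave 0 calls among the 10 and left their median in WT serum over time at -0.086. Neither set of numbers had every pair over 0.1, and neither was used to pair the libraries in the main fit. A pairing of only some libraries would fail this bar, so the check cannot settle whether a batch or donor was shared. By the titles, same-numbered libraries of different groups had correlations of -0.218 to 0.255 (4 of 24 over 0.1), and 5 of 16 were closest to their own number. For the numbers in the column names, which differ from the titles in 7 libraries, the correlations were -0.093 to 0.335 (8 of 24 over 0.1), and 7 of 16 were closest to their own number. Over all genes the block called 0 at ZT16 between genotypes and 6 in the interaction. A block by column names called 3 and 12. Limits are the missing counts, 4 libraries per group and estimates of the 10 genes that are small beside the spread of their libraries.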
